A study of Rattus norvegicus with 320 samples.

Results

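The let-7 and miR-98 family is a group of microRNAs, small RNAs that pair with messenger RNAs and lower their output. Its members were chosen by name, as mature 5p sequences whose rat name begins with let-7 or miR-98. Of the 616 miRNAs in the count table, 1 met this rule, miR-98-5p. The other 7 members named for the family have no row in the count table and are not analysed here. The results below are therefore those of miR-98-5p and of its partner strand, miR-98-3p.

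Small RNA libraries had been made from whole ground organs of 32 Fischer 344 rats, 16 female and 16 male, with 4 rats of each sex at 2, 6, 21 and 104 weeks of age. The organs were adrenal gland, brain, heart, kidney, liver, lung, skeletal muscle, spleen and thymus in both sexes, testis in males and uterus in females, all from pair-housed animals. Of 320 samples, 318 were used, and 1 brain sample of a 6-week male and 1 spleen sample of a 104-week female were left out by the rule. A group of 1 organ and 1 age held 8 samples where both sexes were present, 7 after an omission, and 4 for testis and uterus. Total counts ran from 315550 to 10571766 per sample, and the largest 95% Wilson interval of miR-98-5p was 4.80% of its value to either side, which covers counting error only. Replicates are separate animals. By the study's quality checks, RNA integrity was low in all 8 spleen samples of week 2, and 1 brain library, replicate 4 of the 104-week females, held a low share of miRNA reads. Results that rest on these samples are also given without them where a refit was made, a choice made after seeing the data. Some, such as the F test across organs and the TMM-scaled organ means, are given only with them.

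Let-7 miRNAs are named after a gene that times larval development in the nematode, and in mammals they are known to accumulate as cells differentiate. Precursors of the family can be held back by the RNA-binding protein LIN28, and known targets include Hmga2 and Ras genes. Members share the seed, bases 2 to 8 of the mature strand, which is the stretch that does most of the pairing with a target. A precursor hairpin yields a 5p and a 3p strand, and for this family the 5p strand is usually the one that is kept.

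The mature sequences from RefSeq (GRCr8) are shown because the family is defined by its seed, in capitals, and because the bases after the seed decide how far reads of miR-98-5p can be told from those of let-7.
rno-miR-98-5p: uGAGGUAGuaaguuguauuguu
rno-let-7a-5p: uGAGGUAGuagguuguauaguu
rno-let-7c-5p: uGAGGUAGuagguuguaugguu
rno-let-7b-5p: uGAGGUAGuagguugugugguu
rno-let-7i-5p: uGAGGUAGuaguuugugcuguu
rno-miR-98-3p: cUAUACAAcuuacuacuuucc
All 9 mature 5p sequences compared held the same seed, and the 3p strand held another. Counting from 1 at the 5′ end, with the let-7 base first and the miR-98-5p base last, let-7a-5p differed at G11A and A19U and let-7c-5p at G11A and G19U. The full-length sequences differed from miR-98-5p at 2 to 4 positions. Over the first 16 bases, 3 let-7 members had fewer than 2 mismatches to miR-98-5p, over the first 18 bases 2 had, and over the first 19 bases 0 had. The study kept reads of 16 to 35 nucleotides and allowed fewer than 2 mismatches. How a read that matched several members was counted is not given in the sources used here, and the part of such reads in the counts of miR-98-5p was not tested.

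The RefSeq hairpin of miR-98, at chrX:24460648-24460755 on the plus strand of GRCr8, shows where both strands lie, here in capitals. The count table carries no coordinates, and the study's own build was rn7.
Mir98 hairpin: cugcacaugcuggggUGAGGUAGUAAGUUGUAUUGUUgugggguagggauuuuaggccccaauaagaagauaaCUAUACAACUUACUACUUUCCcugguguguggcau

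miR-98-5p was an abundant miRNA in every organ. Its level is given as CPM, the reads of a miRNA per 1000000 reads counted in the sample. Over the 318 samples it ranged from 2911 to 24232 CPM with a median of 6937. It stood at place 8 to 33 among the miRNAs of a sample, in a table that holds no row for the other 7 named members. Spleen had the highest mean over all ages, at 13579 ± 4580 CPM (SD, n = 31), followed by brain at 11992 ± 1647 (n = 31). Without the samples of week 2 the mean of spleen was 11944 ± 3884 CPM (n = 23), just below that of brain. The lowest means were those of muscle, at 4555 ± 1108 (n = 32), and thymus, at 4695 ± 1466 (n = 32). The 7 other organs lay between 5419 in kidney and 9673 in lung. The highest organ mean was 2.98 times the lowest. Spleen varied the most among its own samples, with a coefficient of variation of 33.7%, and liver the least, with 13.3%.

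**Figure D1:**
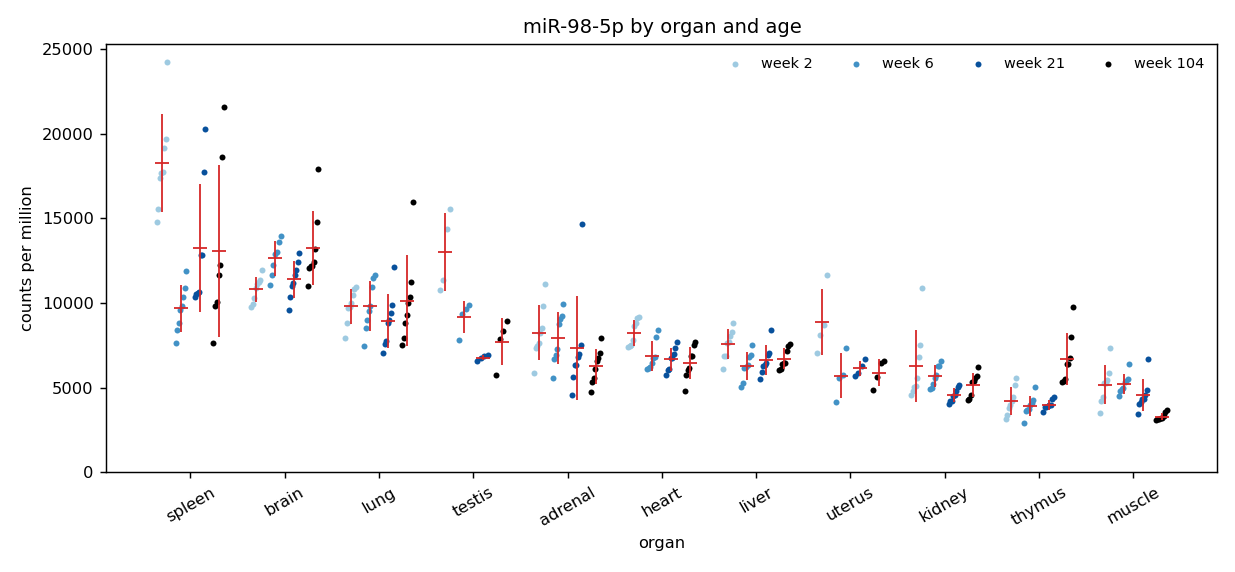
Level of miR-98-5p in CPM (y axis) for every sample used, by organ (x axis, ordered by mean) and age (colour), with group means and SD in red. Spleen at week 2 lies between 14806 and 24232 CPM, and the thymus samples of week 104 lie above most younger ones; the direction of change with age depends on the scaling in several organs.

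The order of organs depended on how libraries were scaled. CPM divides by everything counted, so 1 very abundant miRNA lowers all others. TMM scaling in edgeR instead assumes that most miRNAs do not differ between libraries. Between organs this assumption is in doubt, since with TMM 65.7% of miRNA and organ pair combinations differed at week 2 and 56.3% at week 104. On TMM-scaled totals uterus had the highest mean, 11303, and stood first instead of eighth. Brain fell from the second place to the tenth, at 5769. Spleen, at 9379, and testis, at 9252, were next below uterus, and thymus, at 5086, was lowest. Thymus was thus among the lowest organs under both scalings, while no organ ranked first under both.

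**Figure D2:**
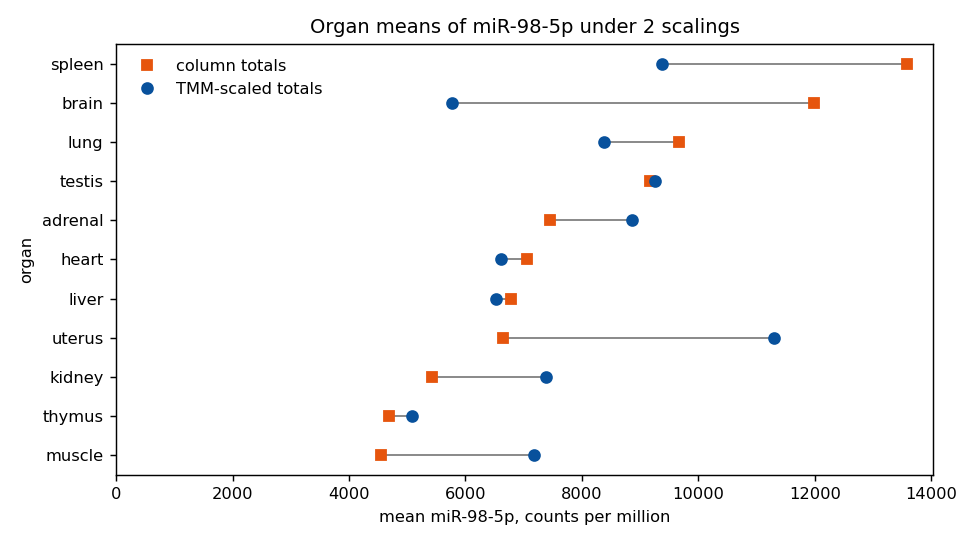
Mean miR-98-5p per organ over all ages (x axis, CPM) with column totals (squares) and TMM-scaled totals (circles). Brain moves from 11992 to 5769 and uterus from 6649 to 11303, so their order reverses with the scaling.

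Differences between organs were tested at each age with edgeR's quasi-likelihood test and Benjamini-Hochberg adjustment over all miRNAs, with adjusted p under 0.05 counted as a difference. At week 2, 36 of 55 organ pairs differed in miR-98-5p, beside 65.7% of all miRNA and pair combinations tested. Without spleen 27 of 45 pairs differed at that age. The counts were 38 pairs at week 6 (background 64.6%), 33 at week 21 (61.6%) and 31 at week 104 (56.3%). With library size only, without TMM, they were 41, 43, 40 and 35, against backgrounds of 67.2%, 65.4%, 62.9% and 60.6%. Fewer pairs differed in the same direction under both scalings, 22, 19, 14 and 14 at the 4 ages. In 4, 10, 8 and 5 pairs the difference passed under both scalings and pointed in opposite directions. For calls under both scalings the share over all miRNAs was not computed, so these counts do not set miR-98-5p apart from other miRNAs.

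Neighbours in the CPM order were often not distinct. With library size only, 2 of the 10 neighbouring pairs differed at each age. At week 2 these were spleen above testis and muscle above thymus, and at week 6 brain above lung and again muscle above thymus. At week 21 they were brain above lung and uterus above kidney, and at week 104 spleen above lung and kidney above muscle. With TMM, 6, 8, 7 and 6 neighbours differed at the 4 ages, and several pointed against the CPM order: brain was below lung by 0.49 on the log2 scale at week 2 and by 0.62 at week 21. The share over all miRNAs was not computed for neighbours either.

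Change with age was measured in each organ from week 2, the juvenile stage, to week 104, old age. With TMM, miR-98-5p rose in 4 of 11 organs and fell in 0, beside 22.0% of all miRNA and organ combinations that rose and 28.4% that fell. With so many miRNAs changing, the assumption behind TMM is in doubt for age as well. At an unadjusted p under 0.05 edgeR counted 6 organs higher and 0 lower, and DESeq2 counted 4 higher and 0 lower after adjustment. With library size only, miR-98-5p rose in 2 organs and fell in 5, against backgrounds of 12.4% and 39.0%. Brain and thymus were the 2 organs in which it rose under both scalings. Beside these results stands a difference in composition, since all organs were ground whole: fewer cells of a type and less RNA per cell cannot be told apart.

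In brain the 8 samples of week 2 ranged from 9782 to 11917 CPM with a median of 10995, and the 8 of week 104 from 10996 to 17914 with a median of 12317. The older samples were shifted upward and the ranges overlapped. The highest value was that of the female library with a low share of miRNA reads, and without it the old samples ended at 14790 CPM. miR-98-5p was higher at week 104 by 0.70 (log2, SE 0.08, adjusted p = 7.67e-09) with TMM and by 0.29 (SE 0.08, adjusted p = 0.0030) with library size only, and the rise passed in all 10 alternatives. Without that library it was 0.59 with TMM (adjusted p = 2.20e-07) and 0.23 with library size only (adjusted p = 0.0112). The mean went from 10808 CPM at week 2 to 12632, 11389 and 13220 at weeks 6, 21 and 104. From week 2 to week 6 the rise was 0.51 with TMM, beside 23.5% of all miRNAs in brain that rose over this step, and 0.22 with library size only. The next steps were 0.01 and 0.17 with TMM, and -0.15 (adjusted p = 0.206) and 0.21 (adjusted p = 0.140) with library size only. Without the library of low miRNA share the step from week 21 to week 104 was 0.14 with TMM and 0.15 with library size only. Of all miRNAs in brain, 28.7% rose from week 2 to week 104. The brain marker miR-124-3p was higher in all 31 brain samples than in any other organ.

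In thymus, the organ where T cells mature and which shrinks with age, the 8 samples of week 2 ranged from 3155 to 5537 CPM with a median of 4093. Those of week 6 had a median of 3858 and those of week 21 a median of 3939. The 8 samples of week 104 ranged from 5317 to 9777 with a median of 6367. The 3 younger groups overlapped one another, and the old group overlapped week 2 only at its lower end and lay above every sample of weeks 6 and 21. The rise from week 2 to week 104 was 0.36 (SE 0.12, adjusted p = 0.0080) with TMM and 0.68 (SE 0.14, adjusted p = 6.78e-05) with library size only, and it passed in all 10 alternatives. Within organs other than brain and spleen, the alternative with all 320 samples repeats the main fit. It therefore adds no support to the counts of alternatives here and below. The step from week 21 to week 104 was 0.36 and 0.75 and passed under both (background 19.7%). In thymus 25.0% of all miRNAs rose from week 2 to week 104.

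Summed levels of red-cell and white-cell miRNAs, which are not counts of cells, also differed with age in thymus. The 4 measured red-cell miRNAs, which include miR-451-5p, summed to 809 to 1891 CPM at week 2 and to 6285 to 93919 CPM at week 104. The 5 white-cell miRNAs, which include miR-150-5p and miR-142-5p, summed to 36792 to 57418 CPM at week 2 and to 11709 to 29862 CPM at week 104. The part of these cells in the change of miR-98-5p was not tested.

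**Figure D3:**
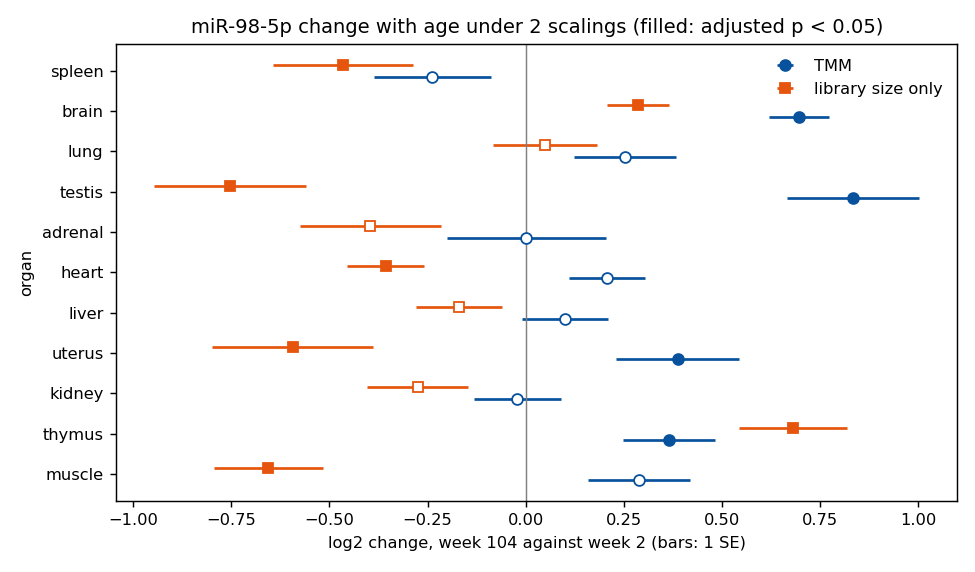
Log2 change of miR-98-5p from week 2 to week 104 (x axis, bars 1 SE) in each organ (y axis) with TMM (circles) and library size only (squares), filled where the adjusted p was under 0.05. Brain and thymus lie right of 0 under both scalings; testis and uterus are filled on opposite sides of 0.

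Testis and uterus passed in opposite directions under the 2 scalings. In testis the 4 samples of week 2 had 10770, 11346, 15577 and 14339 CPM and the 4 of week 104 had 8927, 8352, 5742 and 7857 CPM. Every young sample was above every old one in CPM, and the fall was 0.75 on the log2 scale with library size only (adjusted p = 0.0018), whereas with TMM miR-98-5p was higher at week 104 by 0.83 (SE 0.17, adjusted p = 4.02e-04), as were 18.7% of all miRNAs in testis. The rise passed in 9 of 10 alternatives. The median change of all miRNAs in testis was -0.57 with TMM and -2.07 with library size only. The 7 germ-cell miRNAs, among them miR-34c-5p and miR-741-3p, summed to a mean of 4558 CPM at week 2, 193012 at week 6, 185582 at week 21 and 1061 at week 104. The testis marker miR-741-3p exceeded all other organs in 15 of 16 testis samples. The part of germ cells in these values was not tested.

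In uterus the 4 samples of week 2 had 7066, 8078, 11648 and 8714 CPM and the 4 of week 104 had 4878, 6454, 6560 and 5647 CPM. The groups did not overlap in CPM, with the young samples higher. The change was -0.59 with library size only (adjusted p = 0.0170) and 0.39 with TMM (adjusted p = 0.0494), where 17.5% of all miRNAs in uterus rose. The rise passed in 4 of 10 alternatives, among them that with all 320 samples, which repeats the main fit here. Over all 10 the adjusted p ran from 0.0170, which is the opposite call, to 0.322 with the lane as a covariate. The median of all miRNAs in uterus was -0.18 with TMM and -1.13 with library size only.

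In the remaining organs no rise or fall passed with TMM. Muscle changed by 0.29 with TMM (adjusted p = 0.0528) and by -0.66 with library size only (adjusted p = 1.03e-04). Heart changed by 0.21 with TMM and by -0.36 with library size only, and the latter passed (adjusted p = 0.0024). Spleen changed by -0.24 with TMM (adjusted p = 0.219) and by -0.47 with library size only (adjusted p = 0.0364), and low RNA integrity of the week 2 spleens cannot be told apart from age there. From week 6 to week 104, without those samples, spleen changed by 0.34 with TMM (adjusted p = 0.197) and by 0.45 with library size only (adjusted p = 0.145). Adrenal gland, kidney, liver and lung passed under neither scaling.

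In spleen the levels of week 2 and week 6 were far apart. The 8 samples of week 2 ranged from 14806 to 24232 CPM with a median of 17707, and the 8 of week 6 from 7650 to 11902 with a median of 9691. The groups did not overlap, and 21.2% of all miRNAs in spleen fell over this step. miR-98-5p fell by 0.51 on the log2 scale with TMM (adjusted p = 0.0068) and by 0.92 with library size only (adjusted p = 8.77e-05), and the fall passed in 9 of 10 alternatives. All 8 samples of week 2 and none of week 6 were those with low RNA integrity, so that integrity and age cannot be told apart in this step. The red-cell miRNAs in spleen summed to a mean of 181209 CPM at week 2 and 120276 CPM at week 6. The white-cell miRNAs summed to a mean of 42751 CPM (30195 to 60345) at week 2 and 55854 CPM (43773 to 62343) at week 6. The part of both in the fall was not tested. Testis fell over the same step too, by 0.47 with TMM, as did 27.0% of all miRNAs there, and by 0.50 with library size only, and passed in 5 of 10 alternatives.

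Over that step miR-98-5p rose in 3 organs and fell in 2 with TMM, beside backgrounds of 15.5% and 20.7%, and without spleen it fell in 1. The 3 were brain, heart (20.5% of all miRNAs there rose) and muscle (19.6%). Heart changed by 0.26 with TMM (adjusted p = 0.0272) but by -0.27 with library size only (adjusted p = 0.0285), so it passed in opposite directions. Brain passed in all 10 alternatives, heart in 3 and muscle in 4, and leaving out any replicate left 1 to 2 organs higher. Scaled by library size only, 1 organ rose and 4 fell (background 9.36% and 26.1%). From week 6 to week 21 it rose in 2 organs, liver by 0.42 and muscle by 0.36 (background 7.44% over all organs, 4.97% in liver and 13.7% in muscle). Neither passed with library size only, where liver changed by 0.07 and muscle by -0.20. Liver passed in 4 of 10 alternatives and muscle in 6. At that step 0 organs fell with TMM in edgeR or with DESeq2 (background 9.0%), also at an unadjusted p under 0.05. Without TMM edgeR called 0 organs higher and 0 lower (background 3.85% and 13.9%), and at an unadjusted p under 0.05 it counted 1 and 2.

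From week 21 to week 104 miR-98-5p rose in thymus and testis and fell in muscle with TMM (background 7.43% and 8.72%). Without TMM, 1 organ rose, thymus, and 1 fell, muscle (background 6.52% and 9.64%). In muscle the 8 samples of week 21 ranged from 3422 to 6673 CPM with a median of 4344, and those of week 104 from 3073 to 3672 with a median of 3221. The old samples overlapped only the lower end of the adult ones. The fall was 0.39 with TMM (adjusted p = 0.0343, background 8.99%) and 0.47 with library size only (adjusted p = 0.0176). Testis rose by 1.47 with TMM (adjusted p = 1.03e-06, background 26.0%) and changed by 0.19 with library size only (adjusted p = 0.435). Over this step muscle passed in 6 of 10 alternatives, thymus in 8 and testis in 9.

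The age change differed between organs. The F test of the change from week 2 to week 104 across the 11 organs gave F = 7.03 (adjusted p = 1.90e-09), and 86.0% of all miRNAs passed this test. Set against the mean change of the other organs, brain was higher by 0.56 (SE 0.13), testis was higher by 0.76 (SE 0.17) and spleen was lower, at -0.66 (SE 0.13), with 30.5% of all miRNA and organ combinations passing. In the same direction as miR-98-5p, 28.2% of all miRNAs passed in brain, 24.5% in testis and 12.5% in spleen. With library size only brain was 0.58, testis was -0.56 and passed in the opposite direction, and spleen was -0.25 and did not pass. Brain did not pass without replicate 1 or without replicate 2 of every group, at 0.18 each, nor with a minimum mean count of 10, at 0.16. Without the female library with a low share of miRNA reads, brain was 0.22 and did not pass with TMM (adjusted p = 0.220), and was 0.52 with library size only (adjusted p = 0.0012). In spleen the low RNA integrity of week 2 cannot be told apart from age. With spleen left out, brain was 0.50 and testis 0.70 with TMM, and both passed. Thymus did not pass with TMM, at -0.09, and passed at 1.01 with library size only. Muscle was 0.25 with TMM, not passing, and -0.46 with library size only, passing. With library size only the median of all miRNAs for this difference was 0.92 in thymus and -0.48 in muscle. In brain that median was 0.39 with TMM and 0.36 with library size only. It was 0.07 and -1.13 in testis, and 0.07 and 0.37 in spleen. By size with TMM, miR-98-5p in brain stood at place 356 of 616 miRNAs.

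The sexes were compared in the 9 shared organs over all ages. miR-98-5p differed in 0 of 9 organs by edgeR's adjusted p and in 0 by DESeq2, beside 1.40% of all miRNA and organ combinations. At an unadjusted p under 0.05 edgeR counted 1 organ, spleen, where females were higher by 0.22 (log2, SE 0.10, adjusted p = 0.451), and DESeq2 counted 0. Without TMM edgeR counted 2 at an unadjusted p under 0.05, brain at 0.12 (adjusted p = 0.544) and spleen at 0.26 (adjusted p = 0.405). With the week 2 samples left out, spleen was 0.15 with TMM (edgeR unadjusted p = 0.265) and 0.28 with library size only (edgeR unadjusted p = 0.0876). With the female library of low miRNA share left out, brain was 0.088 with library size only (edgeR unadjusted p = 0.107). A difference between the sexes in the change from week 2 to week 104 passed in 0 of 9 organs (background 1.25%). At an unadjusted p under 0.05 the count was 0 by edgeR with TMM and 0 by DESeq2, and 1 by edgeR with library size only, kidney at -0.67 (SE 0.26, adjusted p = 0.181).

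The partner strand was far rarer. miR-98-3p had 1 to 249 counts per sample and a median of 17.7 CPM. Its organ means differed by 5.50 times, from 7.0 CPM in muscle to 38.6 in brain. Its median count was 12 in liver, 17.5 in muscle and 21 in testis, so ratios there rest on few reads. Reads of miR-98-5p per read of miR-98-3p had a median of 421 over all samples, and the organ medians ranged from 150 in thymus to 1021 in testis, a difference of 6.81 times.

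**Figure D4:**
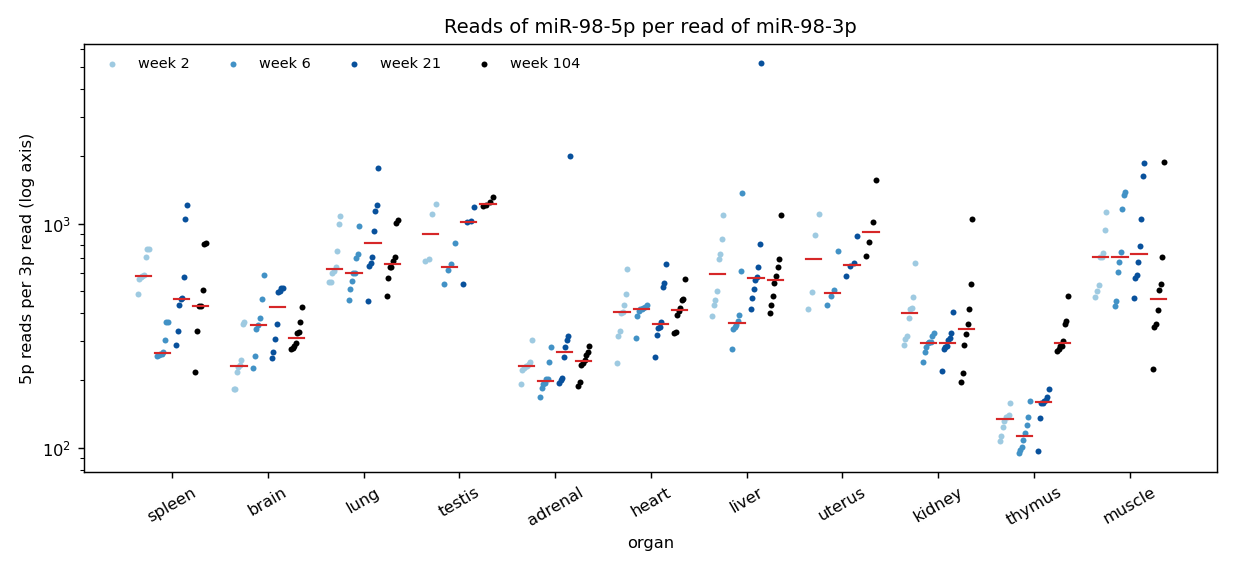
Reads of miR-98-5p per read of miR-98-3p (y axis, log scale) in every sample, by organ (x axis) and age (colour), with group medians in red. Thymus is lowest, with medians of 135, 113 and 161 at weeks 2, 6 and 21, and rises to 293 at week 104.

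The ratio of the strands does not depend on library scaling. It was tested after the table had been seen, with an exact two-sided permutation test on log2 values between week 2 and week 104 in each of 11 organs. In thymus the 8 samples of week 2 ranged from 107 to 159 5p reads per 3p read and the 8 of week 104 from 271 to 478. The groups did not overlap. The mean log2 ratio went from 7.02 ± 0.18 to 8.31 ± 0.28 (SD, n = 8 each; exact permutation p = 1.55e-04, adjusted p = 0.0017 over the 11 organs). Brain had the next smallest p, with a difference of 0.39 (exact permutation p = 0.0255, adjusted p = 0.140), and of 0.33 without the library of low miRNA share (adjusted p = 0.274). The other 9 organs did not pass, with differences from -0.47 in muscle to 0.55 in uterus. For 4 samples against 4, as in testis and uterus, the smallest p the test can give is 0.0286. After adjustment over the 11 organs such a p would pass only if most organs had p-values that small. The test could therefore hardly call testis or uterus, and their result is not read as no change.

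Both strands changed in thymus. miR-98-3p had a mean of 32.2 ± 6.1 CPM at week 2 and 21.2 ± 6.9 CPM at week 104 (SD, n = 8 each). It fell by 0.93 on the log2 scale with TMM and by 0.61 with library size only, and both passed, while miR-98-5p rose. With TMM miR-98-3p rose in 1 organ, muscle, and fell in 1, thymus, beside 22.0% and 28.4% for all miRNA and organ combinations. The rise in muscle was 0.94, where library size only gave 0.03 and did not pass. Muscle held a median of only 17.5 counts of miR-98-3p per sample. With library size only miR-98-3p rose in 0 organs and fell in 4, beside 12.4% and 39.0%. Besides thymus, those 4 held heart (-0.47), testis (-1.28) and uterus (-1.20).

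**Figure D5:**
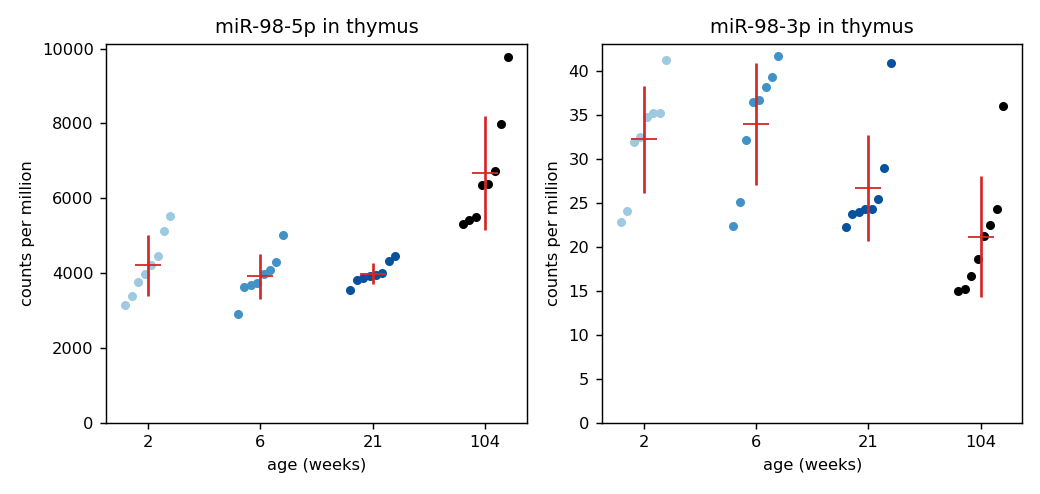
Levels of miR-98-5p (left) and miR-98-3p (right) in thymus in CPM (y axes) by age in weeks (x axes), with means and SD in red, 8 samples per age. From week 2 to week 104 the mean of the 5p strand goes from 4204 to 6680 and that of the 3p strand from 32.2 to 21.2, and both directions hold with TMM and with library size only.

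Several miRNAs share transcripts with let-7 genes in mammals, the miR-99, miR-100 and miR-125 families. They are listed as partners of let-7 genes that are not analysed here, not of miR-98. In RefSeq (GRCr8) the hairpins of let-7f-2 and miR-98 lie 520 bases apart. All 11 listed strands were measured. From week 2 to week 104 they rose in 32 and fell in 24 of 121 strand and organ combinations with TMM, beside 22.0% and 28.4% for all miRNAs, and in 15 and 50 with library size only, beside 12.4% and 39.0%. miR-125b-1-3p had a median change of -0.89 and fell in 10 of 11 organs under both scalings. In brain it went from 331 ± 49 to 208 ± 22 CPM (SD, n = 8 each) and in testis from 299 ± 37 to 14.8 ± 12.4 CPM (n = 4 each). miR-100-3p had a median change of -1.16 and fell in 5 organs with TMM and 8 with library size only, with a mean count of only 7.77.

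The miRNAs whose levels most resembled those of miR-98-5p were sought over the 80 group means of organ, sex and age. Pearson's r on log2(CPM + 1) was 0.826 for miR-320-3p and 0.766 for miR-151-3p. Both were highest in spleen or lung, where miR-151-3p had 5439 and 5623 CPM, and miR-151-3p was lowest in thymus, at 1545. miR-98-3p, from the same hairpin, had r = 0.418 and stood at place 123 of 456. These are descriptions, since group means share libraries' totals and animals.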

How the data were processed

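Small RNA was sequenced from 320 organ samples. The authors trimmed reads with fastp 0.23.2, aligned them with Bowtie 1.3.1 (rn7 per the labels) and deposited raw counts of 604 known miRNAs and 12 candidates; no normalization had been applied. Counts were tested with edgeR 4.0.16 (TMM, quasi-likelihood F test, Benjamini-Hochberg over all miRNAs of a contrast, adjusted p under 0.05) in R 4.3.3. The fits were also run on simulated counts with as many rises as falls, which cannot judge the choice of scaling. CPM used column totals. Alternatives were library size only, DESeq2 1.42.0, a minimum mean count of 10, all 320 samples (within an organ a change in brain and spleen only), sequencing lane, replicate number, sex for organ pairs, and each replicate left out; after seeing the data, 1 brain library and the week 2 spleens were left out as well. Strand ratios used a pseudocount of 0.5. The family, lists and named miRNAs (every listed strand counted; of each list those with the largest absolute median change; the 2 most similar miRNAs) were chosen with earlier results of these data known. The tests had been planned for 8 members; with 1 measured, counts are over organs, and shares of a family total were not computed. No 2 samples held identical values. Totals had a median of 2856968.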

Additional observations from a re-analysis of the deposited data

Results flagged for a closer look

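In 4 of 44 groups of 1 organ and age, 1 sample stood far above the others, where chance alone picks about 5% of groups. These were a 21-week male adrenal gland with 14648 CPM of miR-98-5p, a 2-week female kidney with 10890 CPM, a 104-week male lung with 15978 CPM and a 21-week female muscle with 6673 CPM.

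The change from week 2 to week 104, minus the mean of the other organs, differed by edgeR's test in brain (0.56), spleen (-0.66) and testis (0.76) on the log2 scale. In testis the sign reverses with library size only. With TMM the median of all miRNAs for this difference was 0.39 in brain and 0.07 in spleen and in testis. Brain was 0.22 and did not pass without 1 female library of week 104 with a low share of miRNA reads. The spleens of week 2 had low RNA integrity, which cannot be told apart from age there.

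The 2 samples left out had 9606 CPM (6-week male brain) and 9079 CPM (104-week female spleen).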

How the results depend on the processing

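The scaling of libraries was the choice that changed most results. With library size only, organs with miR-98-5p higher or lower numbered 1 and 4 from week 2 to week 6, 0 higher from week 6 to week 21, 1 higher from week 21 to week 104, and 2 and 5 from week 2 to week 104. From week 2 to week 104 the change was then -0.40 in adrenal gland, -0.36 in heart, -0.17 in liver, -0.66 in muscle, -0.75 in testis and -0.59 in uterus, each against the sign with TMM; heart from week 2 to week 6 was -0.27 and muscle from week 6 to week 21 -0.20. Minus the mean of the other organs, it was 0.32 in lung, 0.077 in liver, -0.46 in muscle, 1.01 in thymus and -0.56 in testis. The median of all miRNAs was then 0.39 in lung, 0.072 in liver, -0.48 in muscle, 0.92 in thymus and -1.13 in testis. Mean CPM on TMM-scaled totals was 5769 in brain, 7378 in kidney, 7179 in muscle and 11303 in uterus.

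With DESeq2, 1 organ was higher from week 2 to week 6, and week 104 against week 2 gave -0.057 in adrenal gland, 0.027 in kidney, -0.045 in liver and -0.042 in muscle. With a minimum mean count of 10, 1 organ was lower from week 2 to week 6, kidney was 0.057, and minus the mean of the other organs lung was 0.062, liver 0.011, muscle -0.51, thymus 0.41 and uterus 0.24; brain was 0.16 and no longer passed. With the lane as a covariate, 1 organ was lower from week 2 to week 6, 1 higher from week 6 to week 21 and 0 lower from week 21 to week 104, and adrenal gland was -0.16 and liver -0.034. The cause of these shifts was not tested.

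Samples with the same replicate number did not deviate together (mean correlation 0.006 across ages and sexes and 0.010 across organs). With the replicate number as a block, adrenal gland was -0.0064, and 3 organs were higher from week 2 to week 104, uterus no longer passing at 0.38; pairs called were 36, 37, 33 and 31 at the 4 ages.

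Leaving out each replicate in turn gave 1 to 2 organs higher and 0 to 2 lower from week 2 to week 6, 0 to 1 higher from week 6 to week 21, 1 to 2 higher and 0 to 1 lower from week 21 to week 104, and 0 to 1 lower from week 2 to week 104. Adrenal gland then ran from -0.030 to 0.034 and kidney from -0.13 to 0.15. Minus the mean of the other organs, the ranges were -0.52 to 0.032 in adrenal gland, -0.18 to 0.13 in heart, -0.019 to 0.16 in lung, -0.094 to 0.15 in liver, -0.19 to 0.26 in muscle, -0.12 to 0.30 in thymus and -0.19 to 0.19 in uterus; brain did not pass without replicate 1 (0.18) or replicate 2 (0.18). The strand ratio passed in 1 to 2 organs, and ran from -0.071 to 0.13 in adrenal gland, -0.11 to 0.21 in heart, -0.32 to 0.12 in kidney, -0.16 to 0.097 in lung and -0.24 to 0.063 in liver. The similarity to miR-98-5p ran from 0.811 to 0.836 for miR-320-3p and from 0.744 to 0.772 for miR-151-3p.

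With 1 female brain library of week 104 left out, a choice made after seeing the data, the change minus the mean of the other organs was 0.22 in brain, no longer passing, and with library size only it was -0.56 in testis. With spleen left out, 1 organ was lower from week 2 to week 6, and testis was -0.59 with library size only.

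Over all results and alternatives, 453 values were counted as unchanged. These were tested values that kept their direction and side of the threshold, and counts or levels that moved little. They include fits with all 320 samples that repeat the main fit. Another 52 values changed sign, 45 lost and 13 gained the threshold, and 35 counts or levels moved further. Counts of miR-98-3p, as low as 1, limit the strand ratio most in liver.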
